A study of Homo sapiens with 16 samples.

Results

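The comparison set 2 mitogens against each other in human skin fibroblasts: 2 libraries from cells given the phorbol ester TPA (100 nM, 1 h) against 3 libraries from cells given epidermal growth factor (EGF, 30 ng/ml, 1 h), none of them given the kinase inhibitor H89. These 5 libraries were chosen by their treatment labels from the 16 samples of the series. The cells were CCD-1070Sk, a line of normal human skin fibroblasts, and all groups were serum starved before treatment. The other groups were untreated cells at 0 h and cells pretreated for 30 min with 10 µM H89, alone or before either mitogen, and they entered the statistical model, where they helped to estimate the spread between libraries and, in the fit with a batch term, the differences between batches. Control replicates 3 and 4 had equal counts throughout, so that they differed by less than the sampling noise, and they entered once, leaving 15 libraries. Replicate numbers are only names, given in sample order. Nothing in the labels says that replicates came from separate cultures, so p-values measure the spread between these libraries, which may be technical. In bulk RNA, fewer cells with a transcript and less of it per cell cannot be told apart.

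EGF binds its receptor, a tyrosine kinase at the cell surface, which activates RAS and the ERK kinase cascade and is then internalised. TPA mimics diacylglycerol inside the membrane and activates protein kinase C and other proteins with a diacylglycerol-binding domain, and protein kinase C also feeds into ERK. Both routes reach MSK kinases, which phosphorylate histone H3 and the factor CREB, and both induce immediate-early genes, transcription factors and feedback inhibitors whose RNA appears within an hour and needs no new protein. The study concerned transcriptional programming downstream of mitogens, and this comparison sets its 2 mitogens directly against each other at the same time.

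Total RNA depleted of ribosomal RNA was sequenced, and the deposited values were counts of reads per gene. Total counts were 41514691, 23422453 and 57270922 in EGF replicates 1, 2 and 3, and 33522696 and 130075914 in TPA replicates 1 and 2. The libraries fell into 3 technical batches that were read from the counts, since the labels name 3 sequencing platforms without tying them to samples. EGF 1 and control 1 formed batch I, with more genes at a count of 1 than at a count of 2. EGF 2 and TPA 1 were in batch II, where the ribosomal transcripts RNR1 and RNR2 held 26.6% and 11.7% of their counts. Control 2, H89 1 and EGF+H89 1 of this batch had 30.4%, 26.3% and 24.8%, and TPA+H89 1 had 12.0%. This share thus moved with TPA inside batch II. A technical difference there cannot be told apart from a difference between the mitogens. EGF 3 and TPA 2 were in batch III, where these transcripts had no counts. TPA 2 stood apart within this batch. It had 124 genes at a count of 1, where the other batch III libraries had 478 to 955. It detected 18163 genes, against 21370 in EGF 3. Its median correlation with the other libraries was 0.936, against 0.974 for EGF 3. A technical part of the differences within batch III was not tested. Batch I held no TPA library, so a difference between EGF 1 and the TPA libraries cannot be told apart from a difference between batches. Fibroblast matrix and identity genes summed to between 43555 and 87639 CPM (counts scaled to a fixed library total) in the 5 libraries. Markers of other skin cells summed to 6.62 to 45.5 CPM for keratinocytes, 2.48 to 7.49 for endothelial cells, 30.8 to 49.4 for melanocytes and 13.4 to 52.9 for leukocytes. Most of the keratinocyte sum was KRT10, and 7 of the 8 keratinocyte markers were below 1 CPM in all 5 libraries. Most of the melanocyte sum was MITF. Smooth muscle and pericyte markers summed to 219 to 708 CPM, the highest in TPA 2.

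The main fit had no batch term and called 0 of 18575 tested genes in either direction. Calls were made by edgeR's quasi-likelihood test at a Benjamini-Hochberg adjusted p under 0.05. When the batch was a term in the model, 38 genes were higher with TPA than with EGF and 24 were lower. These were 0.205% and 0.129% of the genes. Below, log2 differences are TPA minus EGF from this fit, ± SE, over 2 TPA and 3 EGF libraries, and levels are in CPM after TMM scaling. All genes named as called below come from the fit with the batch term, whose batches were read from these same counts. In the main fit the calls were 0% of the genes tested. There 2480 genes were below an unadjusted p of 0.05 by edgeR, and the smallest adjusted p was 0.177. DESeq2 without the batch term called 170 genes higher and 130 lower, and limma voom with quality weights 1 and 0. For a single gene the exact two-sided permutation test of 2 against 3 libraries, with the smaller tail doubled, cannot go below 0.2. The calls with the batch term depended on single libraries. No gene was called in either direction without EGF 1, without EGF 3 or without control 1, while 23 were called higher and 19 lower without EGF 2. Without control 3 there were 5 and 3, without TPA 2 there were 9 and 2, and without TPA 1 there were 2324 and 1571. Leaving out EGF+H89 1, TPA+H89 1, H89 3 or TPA+H89 2 gave 56 to 99 genes higher and 60 to 99 lower, and without EGF+H89 2 there were 39 lower. With only the TPA and EGF libraries in the fit, 45 were called higher and 113 lower, and 46 of these calls were among the 62. All 62 called genes kept their direction under every alternative with the batch term in which they were tested.

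The genes called higher included 9 immediate-early genes, FOS, FOSB, JUND, NR4A1, NR4A2, NR4A3, MAFF, IER2 and ARC, and also the ERK phosphatase gene DUSP2 and the receptor feedback gene SPRY2. For 30 of the 38, both TPA libraries lay above all 3 EGF libraries, a pattern that 1803 genes, 9.71% of those tested, showed in all. The 8 others were TMEM132D, TCF21, ACAN, SNORA31, HMOX1, METRNL, BBC3 and DDIT3, in which TPA libraries overlapped EGF 1. All 38 lay above EGF 2 and EGF 3. Within batches, the log2 difference of TPA 1 from EGF 2 (batch II) and that of TPA 2 from EGF 3 (batch III) were positive for all 38. Their medians were 1.65 and 3.10, beside 0 and -0.03 for all genes tested. The same libraries entered the calls, which favours a positive sign here. The difference was larger in batch III for 36 of the 38, and TPA 2 lay above TPA 1 for 37, against 47.5% of all genes tested. The difference of TPA 2 from TPA 1 followed GC content across genes, with a Spearman correlation of 0.460 over 17426 genes, which are not independent replicates. The median GC content was 60% for the called higher genes and 50% for all genes. The part of GC content in these calls was measured only by a correction in 25 bins of GC, added after the data were seen. Under it 29 genes were called higher and 20 lower, 43 of them among the 62. NR4A1, JUND and IER2 were not called there (adjusted p = 0.0616, 0.0630 and 0.0724 by edgeR), while the other immediate-early genes named above were. ATP5E, LOC100126784, RNU6-2_dup1, SNORD50A and SNORD138 had no value in that fit. The sample names set TPA 1 beside EGF 3 instead, across batches II and III. Both libraries of that pair also entered the calls, so it is not a separate check of their direction. All 38 higher genes were higher with TPA in it and all 24 lower genes lower. Some differed by little, such as JUND with a log2 difference of 0.21, BBC3 with 0.29 and GDF15 with 0.42. A term for the sets of sample names in place of the batch gave 7 genes higher and 3 lower, of which 5 were among the 62: DUSP2 and NR4A3, higher, and SNORA25, SNORD50A and SCARNA16, lower.

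**Figure D1:**
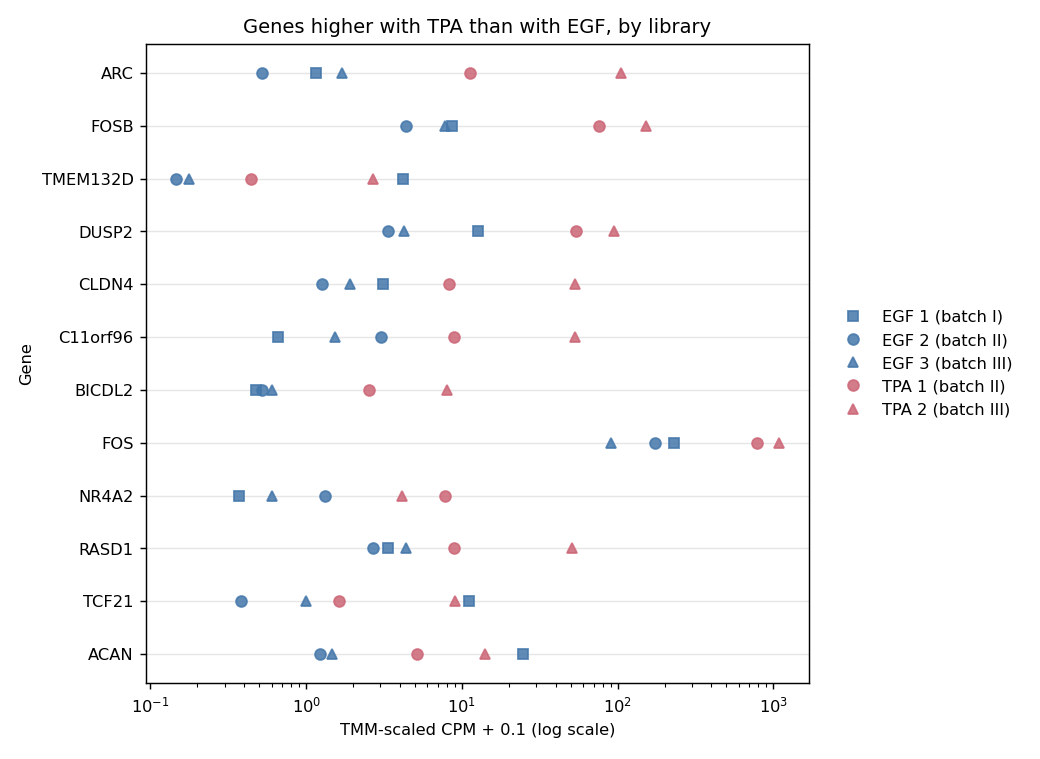
Levels of 12 genes called higher with TPA, in TMM-scaled CPM plus 0.1 on a log axis, with 1 point per library: blue for EGF, red for TPA, and squares, circles and triangles for batches I, II and III. The 12 are those with the highest log2 difference among called genes with a mean of at least 1 CPM. The red points lie to the right of all blue points except in TMEM132D, TCF21 and ACAN, where the blue square of EGF 1 lies to the right of both TPA libraries.

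**Figure D2:**
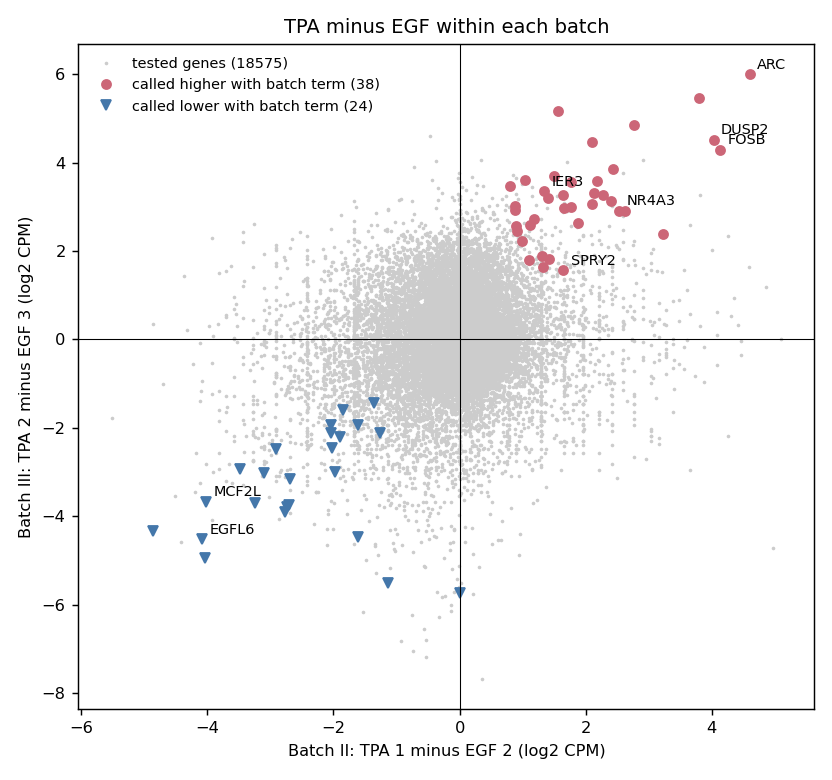
Each point is a gene, placed by its log2 CPM difference of TPA 1 from EGF 2 in batch II (horizontal) and of TPA 2 from EGF 3 in batch III (vertical). The 38 genes called higher (red circles) have positive values on both axes, and 36 of them have the larger value on the vertical axis. The 24 genes called lower (blue triangles) are at or below 0 on both.

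Transcription factors of the AP-1 family, which pair FOS and JUN proteins on DNA, differed in how far TPA exceeded EGF. FOSB stood at 8.54, 4.30 and 7.69 CPM in EGF 1, 2 and 3 and at 76.0 and 151 CPM in TPA 1 and 2, with no overlap. Its log2 difference was 4.74 ± 0.73 (adjusted p = 0.0125 by edgeR). FOS stood at 230, 174 and 90.3 CPM with EGF and at 785 and 1081 CPM with TPA, a log2 difference of 3.25 ± 0.62 (adjusted p = 0.0360 by edgeR). JUND, a family member present in most resting cells, was called as well, at 86.6, 60.9 and 98.0 CPM with EGF and 113 and 582 CPM with TPA, a log2 difference of 1.93 ± 0.38. JUNB did not pass (adjusted p = 0.0550 by edgeR). It stood at 252, 426 and 643 CPM with EGF and at 790 and 8108 CPM with TPA, so that most of its difference of 2.83 ± 0.59 came from TPA 2. FOSL1, which encodes FRA1, measured 12.1, 84.7 and 109 CPM with EGF and 132 and 349 CPM with TPA and was not called. JUN itself overlapped, at 503, 308 and 336 CPM with EGF against 234 in TPA 1 and 915 in TPA 2. ATF3, which dimerises with JUN proteins, was at 96.5, 51.3 and 44.3 CPM with EGF and at 123 and 198 CPM with TPA, again without a call.

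All 3 NR4A genes, which encode orphan nuclear receptors that are active without a ligand, were called higher with TPA. NR4A3 stood at 5.44, 10.7 and 10.2 CPM with EGF and at 62.3 and 77.0 CPM with TPA. Its difference of 2.72 ± 0.33 on the log2 scale was among those with the lowest adjusted p (0.00277 by edgeR), and its 2 TPA libraries were close to each other. NR4A1 measured 87.2, 75.8 and 71.0 CPM with EGF and 201 and 650 CPM with TPA (2.45 ± 0.48). NR4A2 was low throughout, at 0.268, 1.21 and 0.502 CPM with EGF and 7.71 and 4.01 CPM with TPA (3.10 ± 0.53), and it was the gene among the 38 whose level was lower in TPA 2 than in TPA 1. MAFF, a small MAF factor, and IER2, a short-lived nuclear protein, completed the calls in this list. MAFF was at 98.8, 101 and 121 CPM with EGF and 219 and 724 CPM with TPA. IER2 was at 87.5, 58.4 and 77.2 CPM with EGF and 184 and 605 CPM with TPA.

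The EGR zinc-finger factors, classical targets of ERK through serum response factor, were above EGF in both TPA libraries but were not called. EGR1 measured 68.7, 215 and 268 CPM with EGF and 465 and 533 CPM with TPA, a log2 difference of 1.44 ± 0.64. EGR2 measured 43.0, 157 and 201 CPM with EGF and 347 and 350 CPM with TPA (1.32 ± 0.45). EGR3 showed the widest gap of the 3, 17.1, 80.4 and 93.7 CPM against 236 and 885 CPM (2.70 ± 0.62, adjusted p = 0.0761 by edgeR). In all 3 genes EGF 1 was well below the other EGF libraries. HES1, a repressor of the bHLH class, KLF10 and MYC were likewise not called, with log2 differences of 2.62 ± 0.59, 0.80 ± 0.35 and 0.91 ± 0.25. Over the 28 immediate-early transcription factors, 8 were called higher and 0 lower, where 0.205% and 0.129% of all tested genes were. The same shares stand beside the calls in each list below. All lists were chosen with earlier results of these data known, so their counts of calls are no test. The median log2 difference of the 28 was 1.49 with the batch term and 1.41 without it, beside -0.01 and -0.03 for all genes tested. The list's median was 0.89 within batch II, 1.80 within batch III and 0.46 for TPA 1 against EGF 3.

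Promoter sequence was read for the called genes from RefSeq (GRCh38.p14) as the 250 bases before the annotated start. The table held 25 of the 38 higher and 8 of the 24 lower genes, matched by symbol. The 5 shown belong to transcription factors and feedback genes that the comparison called, and they display the letters TGACG, the core of a cAMP response element (CRE), or GCGNGGGCG, the letters bound by EGR proteins. Capitals mark matches on either strand, and a full CRE, TGACGTCA, contains this core on both strands.
FOS (chr14:75278578-75278827, plus strand): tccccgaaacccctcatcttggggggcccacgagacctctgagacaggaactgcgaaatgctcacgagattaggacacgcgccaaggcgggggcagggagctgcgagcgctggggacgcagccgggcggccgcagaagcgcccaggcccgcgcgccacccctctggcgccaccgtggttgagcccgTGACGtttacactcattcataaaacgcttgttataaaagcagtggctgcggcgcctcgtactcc
FOSB (chr19:45467746-45467995, plus strand): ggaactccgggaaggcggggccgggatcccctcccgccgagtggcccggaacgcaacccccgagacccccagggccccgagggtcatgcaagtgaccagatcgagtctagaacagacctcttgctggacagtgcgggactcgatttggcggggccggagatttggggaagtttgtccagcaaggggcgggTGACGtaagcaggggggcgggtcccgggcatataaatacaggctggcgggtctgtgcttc
MAFF (chr22:38201744-38201993, plus strand): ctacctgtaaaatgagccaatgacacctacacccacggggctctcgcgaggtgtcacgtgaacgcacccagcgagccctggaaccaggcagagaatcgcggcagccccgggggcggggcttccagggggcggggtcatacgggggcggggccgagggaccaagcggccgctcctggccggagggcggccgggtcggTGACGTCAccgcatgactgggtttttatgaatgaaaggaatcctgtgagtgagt
DUSP2 (chr2:96145441-96145690, minus strand): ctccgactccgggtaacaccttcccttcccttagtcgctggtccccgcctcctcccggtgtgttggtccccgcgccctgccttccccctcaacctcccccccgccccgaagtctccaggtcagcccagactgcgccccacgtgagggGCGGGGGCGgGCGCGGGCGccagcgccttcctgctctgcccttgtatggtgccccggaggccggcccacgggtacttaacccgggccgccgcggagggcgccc
SPRY2 (chr13:80341127-80341376, minus strand): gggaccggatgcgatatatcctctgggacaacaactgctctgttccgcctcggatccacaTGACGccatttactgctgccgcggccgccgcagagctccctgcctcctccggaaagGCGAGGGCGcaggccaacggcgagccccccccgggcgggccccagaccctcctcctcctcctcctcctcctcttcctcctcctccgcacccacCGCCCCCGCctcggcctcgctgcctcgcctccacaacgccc

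The core TGACG lay 64 bases before the start in FOS, 60 in FOSB and 190 in SPRY2, and the full CRE of MAFF lay 54 bases before it. TGACG occurred in 12 of the 25 higher promoters (48.0%), beside 21.7% of all 27305 promoters in the table and 27.5% of the 12959 of tested genes. It was searched after the promoters had been read. The full CRE occurred in 2 of the 25, JUND and MAFF, beside 1.77% of all promoters and 2.52% of those of tested genes. The EGR letters occurred in 3 of the 25, DUSP2, SPRY2 and INSIG1, beside 8.25% of all and 12.7% of tested genes' promoters, a share near that of the 25, with 2 copies each in DUSP2 and SPRY2, and in 2 of the 8 lower promoters. The AP-1 letters TGANTCA occurred in 3, BBC3, CLDN4 and DDIT3, beside 6.60% of all and 4.63% of tested genes' promoters. The CArG box of serum response factor occurred in 0 of the 25, beside 1.14% and 1.05%, and the NF-kB motif in 4, beside 9.57% and 11.6%. A match describes letters in this window and is not a measured binding site. Sequence further upstream and at other starts was not searched, so a missing match does not mean that a gene lacks the site.

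ARC, a cytoskeleton-associated protein best known from neurons as an activity-regulated gene, showed the second highest log2 difference of the called genes. It stood at 1.05, 0.420 and 1.60 CPM with EGF and at 11.2 and 105 CPM with TPA, a difference of 5.55 ± 0.75 (adjusted p = 0.00498 by edgeR). Only ADRA2B, an adrenergic receptor gene named here after its values were seen, was higher on that scale, at 7.31 ± 1.26 from very low levels. ADRA2B had 0.335, 0.0467 and 0 CPM with EGF and 1.21 and 1.83 CPM with TPA. ARC, FOSB and the 3 NR4A genes made up the 5 calls among 18 targets of cAMP and CREB. Over all tested genes 0.205% were called higher. The other members included CREM, the PDE4 phosphodiesterases and the PER clock genes, of which none was called. The median of the list was 1.03 with the batch term and 1.20 without it, but 0.29 within batch II against 1.60 within batch III, and 0.11 for TPA 1 against EGF 3.

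Genes that shut signalling down again were split between those that differed and those that did not. DUSP2, a nuclear phosphatase of MAP kinases, stood at 12.5, 3.27 and 4.12 CPM with EGF and at 54.0 and 94.9 CPM with TPA. Its difference of 4.10 ± 0.51 was of similar size within batch II (4.03) and batch III (4.51), with an adjusted p of 0.00277 by edgeR. SPRY2, a brake on signalling from growth factor receptors, stood at 36.6, 29.8 and 38.6 CPM with EGF and at 93.3 and 114 CPM with TPA. Its replicates were tight in both groups, and its difference of 1.63 ± 0.25 was 1.65 within batch II and 1.57 within batch III. IER3, an ERK-regulated survival gene, stood at 83.4, 269 and 357 CPM with EGF and at 683 and 3631 CPM with TPA (2.60 ± 0.46). These were the 3 calls among 22 feedback regulators of ERK and of receptors, whose median difference was 0.36 with the batch term and 0.58 without it.

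Of the other members, 6 are given here, and they differed in direction and size. ERRFI1, which binds and inhibits the EGF receptor, measured 85.6, 89.4 and 87.3 CPM with EGF and 91.7 and 100.3 CPM with TPA, a log2 difference of 0.22 ± 0.25. SPRY4 overlapped, at 8.25, 48.7 and 59.8 CPM with EGF and 57.6 and 51.1 CPM with TPA. DUSP6, the cytoplasmic phosphatase of ERK, had its difference in the other direction without a call. It measured 56.7, 119 and 118 CPM with EGF and 39.3 and 56.9 CPM with TPA, so that TPA lay below both EGF 2 and EGF 3 and overlapped EGF 1 (-1.21 ± 0.33, adjusted p = 0.104 by edgeR). DUSP1 measured 495, 530 and 436 CPM with EGF and 772 and 2839 CPM with TPA, and DUSP5 measured 75.7, 104 and 97.2 CPM against 160 and 234 CPM. DUSP4 overlapped between the groups, with a difference of 0.49 ± 0.33. None of these 6 was called.

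The components of the 2 routes themselves did not pass the test. EGFR, the EGF receptor gene, was at 41.8, 136 and 132 CPM with EGF and at 171 and 203 CPM with TPA (0.73 ± 0.32). Of 10 tested genes of the EGF receptor family and its ligands, 0 were called, with a median of 0.51. HBEGF, a ligand shed from the membrane, was at 5.33, 6.30 and 11.5 CPM with EGF and 14.3 and 22.8 CPM with TPA without a call (1.18 ± 0.40). Of 11 tested protein kinase C and D isoforms, 0 were called, and the median difference was 0.23 with the batch term and -0.24 without it. PRKCA, a classical isoform, overlapped at 57.8, 131 and 116 CPM with EGF and 239 and 93.2 CPM with TPA. PRKCD measured 6.51, 8.03 and 6.05 CPM against 7.25 and 7.49 CPM (0.23 ± 0.32), and PRKCE measured 21.3, 14.6 and 15.6 CPM against 16.4 and 11.8 CPM (-0.02 ± 0.31). PRKCB had no count in either TPA library, but 70 of its 74 counts with EGF were in EGF 1. Of 17 other diacylglycerol-binding proteins and diacylglycerol kinases, 0 were called. CHN2, a RAC-inactivating protein with a phorbol ester-binding domain, had 16, 14 and 17 counts with EGF and 0 and 0 with TPA, which is at least 21.6-fold lower against a floor of 3 counts over the 2 TPA libraries, with an adjusted p of 0.0737 by edgeR.

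Among 24 early cytokines and growth factors, 1 was called, GDF15, a stress-induced member of the TGF-beta family. GDF15 stood at 48.7, 29.8 and 46.0 CPM with EGF and at 61.5 and 560 CPM with TPA (2.64 ± 0.53), so most of its difference came from TPA 2. IL11 stood at 16.7, 21.3 and 48.8 CPM with EGF and 67.9 and 178 CPM with TPA (1.76 ± 0.38, adjusted p = 0.0646 by edgeR). LIF, a cytokine of the same receptor family, had a difference of 1.26 ± 0.40 from 23.1, 62.9 and 79.0 CPM to 145 and 134 CPM. TNFSF9 had one of 1.62 ± 0.39. IL6 overlapped, at 4.57, 67.2 and 38.7 CPM with EGF and 82.1 and 26.7 CPM with TPA (0.17 ± 0.53). IL33, an alarmin stored in the nucleus, lay lower in both TPA libraries, at 7.69, 7.33 and 6.36 CPM against 1.33 and 1.11 CPM, and missed the threshold (-2.54 ± 0.56, adjusted p = 0.0677 by edgeR). The median of the list was 0.60.

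NF-kB targets, which protein kinase C activates in many cell types, gave 0 calls among 27 tested. Their median was 0.26 with the batch term, -0.34 within batch II and 0.57 within batch III, so the batches differed in sign. NFKBIA, the inhibitor that NF-kB induces against itself, measured 59.3, 150 and 117 CPM with EGF and 199 and 555 CPM with TPA (1.36 ± 0.41). CXCL3 measured 0.223, 1.17 and 0.775 CPM against 3.72 and 5.96 CPM (2.23 ± 0.66). CCL2, a monocyte attractant named after its values were seen, measured 25.1, 618 and 529 CPM with EGF and 243 and 70.4 CPM with TPA (-1.93 ± 0.51), and its TPA libraries lay between the EGF libraries. Of 22 matrix proteases, plasminogen and prostaglandin genes, 0 were called and the median was -0.09. PTGS2, the inducible cyclooxygenase, stood at 93.0, 404 and 264 CPM with EGF and 1246 and 459 CPM with TPA (1.29 ± 0.37, adjusted p = 0.112 by edgeR). PLAUR, the urokinase receptor, had a difference of 0.58 ± 0.28. PLAT and the inhibitor TIMP1 lay below all EGF libraries in both TPA libraries without a call. PLAT was at 61.2, 49.9 and 58.2 CPM with EGF and 26.5 and 31.6 CPM with TPA, and TIMP1 at 493, 624 and 833 CPM against 256 and 95.4 CPM.

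Several called genes encode regulators of signalling or adhesion outside these classes. CLDN4, a tight junction protein, stood at 3.01, 1.17 and 1.81 CPM with EGF and at 8.15 and 52.9 CPM with TPA (3.97 ± 0.48, adjusted p = 0.00277 by edgeR). RASD1, a small GTPase, stood at 3.26, 2.57 and 4.30 CPM with EGF and 8.83 and 51.1 CPM with TPA (3.09 ± 0.48). RASD1 and RRAD, another RAS-related GTPase, were the 2 calls among 15 regulators of G-protein signalling and small GTPases, whose median was 0.13. RRAD was at 3.01, 4.02 and 5.55 CPM with EGF and 12.6 and 53.6 CPM with TPA. ID3, an inhibitor of bHLH factors, was the 1 call among 16 Notch and bHLH repressor genes. It was at 15.2, 31.8 and 59.8 CPM with EGF and at 89.8 and 776 CPM with TPA (2.96 ± 0.52). SKI, a repressor of SMAD signalling, was the 1 call among 12 TGF-beta brakes and SNAI factors, at 15.5, 14.9 and 25.9 CPM with EGF and 39.8 and 91.9 CPM with TPA. C11orf96 and BICDL2 had log2 differences of 3.57 ± 0.66 and 3.53 ± 0.63. C11orf96 was at 0.558, 2.94 and 1.43 CPM with EGF and 8.74 and 52.7 CPM with TPA, and BICDL2 at 0.379, 0.420 and 0.502 CPM against 2.45 and 7.88 CPM. TMEM132D, TCF21 and ACAN, the gene of the cartilage proteoglycan aggrecan, were called against EGF 2 and EGF 3 while EGF 1 exceeded both TPA libraries. ACAN was at 24.6, 1.12 and 1.37 CPM with EGF and at 5.08 and 14.05 CPM with TPA, and its fit without the batch term gave 0.08 ± 1.52.

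INSIG1, which holds the sterol-sensing SREBP complex in the endoplasmic reticulum and is itself an SREBP target, stood at 77.9, 87.1 and 73.0 CPM with EGF and at 459 and 644 CPM with TPA. Its difference was 2.75 ± 0.48 (adjusted p = 0.0217 by edgeR), with no overlap and values of 2.40 and 3.14 within batches II and III. It was the 1 call among 22 genes of cholesterol and fatty acid synthesis. All 22 had a positive log2 difference with the batch term and without it, where 9133 and 8909 of the 18575 tested genes did. For 12 of the 22 both TPA libraries lay above all EGF libraries, where 9.71% of the tested genes showed this. The list's median was 1.03 with the batch term, 1.36 within batch II and 0.43 within batch III, so here TPA 1 differed more from its EGF library than TPA 2 did. IDI1 was at 64.5, 69.7 and 59.6 CPM with EGF and at 224 and 103 CPM with TPA. FASN and SREBF1 went the other way between the TPA libraries from IDI1, with FASN at 51.6, 168 and 136 CPM against 328 and 693 CPM, and SREBF1 at 28.6, 59.9 and 60.0 CPM against 100.1 and 248 CPM.

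Stress and growth-arrest genes gave scattered calls. DDIT4, an inhibitor of mTOR complex 1, stood at 96.1, 20.1 and 46.4 CPM with EGF and at 188 and 241 CPM with TPA (2.73 ± 0.47). It was the 1 call among 22 FOXO and growth-arrest genes, whose median was 0.13. TXNIP, a glucose-sensitive arrestin of the same list, lay lower in both TPA libraries without a call, at 297, 279 and 232 CPM with EGF and 74.6 and 163 CPM with TPA (-1.17 ± 0.48). DDIT3, which encodes the stress factor CHOP, was the 1 call among 17 genes that respond to unfolded proteins and to the integrated stress pathway, at 65.9, 28.7 and 29.3 CPM with EGF and 61.5 and 101 CPM with TPA. HMOX1, a haem-degrading enzyme named after its values were seen, was at 28.2, 7.33 and 11.1 CPM with EGF and at 27.0 and 68.7 CPM with TPA (2.27 ± 0.30, adjusted p = 0.00498 by edgeR). GDF15 and BBC3, the gene of the death protein PUMA, were the 2 calls among 18 p53 targets, whose median was 0.28. CDKN1A, another p53 target, was not called, at 474, 813 and 983 CPM with EGF and 1255 and 2901 CPM with TPA (1.27 ± 0.33).

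Several other lists gave no call. They were cell cycle entry and CDK inhibitors (25 genes, median 0.28), mRNA decay factors (12, 0.65), SRF and MRTF targets of the cytoskeleton (20, 0.99), interferon-type genes (17, 0.56) and clustered histone genes (15, 0.33). In the SRF and MRTF list all 20 genes had a positive difference with the batch term, where 9133 of the 18575 tested genes did. Both TPA libraries lay above all EGF libraries for 10 of the 20, where 9.71% of the tested genes showed this. ACTB, encoding cytoplasmic actin, was at 1394, 1458 and 1628 CPM with EGF and at 2917 and 5259 CPM with TPA (1.46 ± 0.39, adjusted p = 0.103 by edgeR). ZFP36, which destabilises cytokine mRNA, was at 18.02, 103 and 111 CPM with EGF and at 177 and 887 CPM with TPA (2.41 ± 0.60, adjusted p = 0.0943 by edgeR). The interferon-type list had a median of 1.01 within batch II and -0.24 within batch III. IFIT3 showed that split, with 69.8, 73.7 and 68.1 CPM in the EGF libraries, 275 CPM in TPA 1 and 88.4 CPM in TPA 2.

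**Figure D3:**
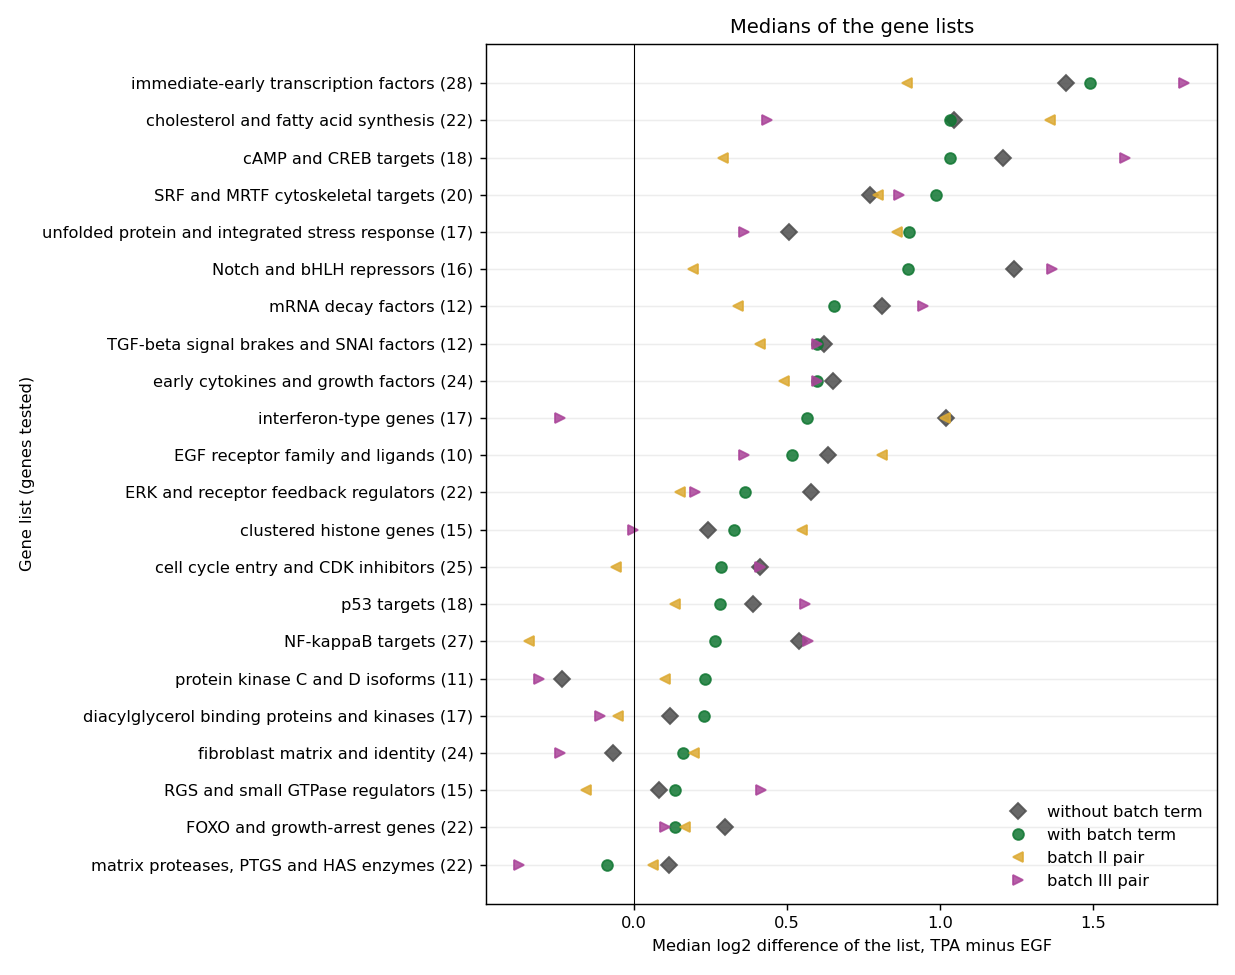
Median log2 difference, TPA minus EGF, of each gene list (number of genes tested in brackets) in the fit without a batch term (grey), with it (green), and in the single pairs of batch II and batch III (triangles). The immediate-early transcription factors lie highest with the batch term at 1.49, cholesterol synthesis lies higher in batch II (1.36) than in batch III (0.43), and NF-kB targets and interferon-type genes change sign between the batches.

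The 24 genes called lower with TPA were 15 small RNA genes and 9 others. For 21 of them both TPA libraries lay below all 3 EGF libraries, as they did for 2062 genes, 11.1% of those tested. EGFL6, a secreted matrix protein with EGF-like repeats, was the 1 call among 24 fibroblast matrix and identity genes. It stood at 2.48, 1.73 and 2.07 CPM with EGF and at 0.0620 and 0.0496 CPM with TPA, a log2 difference of -5.08 ± 0.80 (adjusted p = 0.0125 by edgeR) with no overlap. MGP, an inhibitor of matrix calcification, lay just outside the threshold at 6.24, 3.88 and 5.85 CPM with EGF and 1.24 and 1.09 CPM with TPA (-2.16 ± 0.45, adjusted p = 0.0523 by edgeR). MCF2L, an exchange factor for small GTPases, had 26, 14 and 33 counts with EGF and 0 and 0 with TPA, which is at least 29.6-fold lower against 3 counts over the 2 TPA libraries. The collagen gene COL1A1 was not called, at 2577, 2639 and 4682 CPM with EGF and 5122 and 16656 CPM with TPA (1.68 ± 0.45). DCN, a small matrix proteoglycan named after its values were seen, was at 2731, 4565 and 3843 CPM with EGF and 1681 and 1289 CPM with TPA, without a call (-1.50 ± 0.42).

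Besides EGFL6 and MCF2L, 7 genes called lower were not small RNAs, and they are named here after their values were seen: SNHG3, a noncoding host gene of small nucleolar RNAs, and AP1G2, ACCS, SELENOP, ZNF93, ATP5E and TSACC. SELENOP, a secreted selenium carrier, stood at 15.9, 9.34 and 9.85 CPM with EGF and at 2.48 and 2.12 CPM with TPA (-2.12 ± 0.43). ACCS stood at 19.7, 20.6 and 16.3 CPM against 4.96 and 4.25 CPM (-2.09 ± 0.37), and AP1G2, a subunit of a clathrin adaptor, at 12.1, 23.0 and 13.3 CPM against 6.38 and 4.34 CPM (-1.71 ± 0.33). ZNF93, a zinc-finger repressor, was at 2.74, 4.67 and 4.93 CPM with EGF and 1.12 and 0.868 CPM with TPA (-2.20 ± 0.42). These 4 genes did not overlap between the groups. ATP5E and SNHG3 overlapped, as ATP5E was at 0.374 CPM in EGF 2 but 15.2 and 17.3 CPM in EGF 1 and EGF 3. In TPA 2 ATP5E was at 0.744 CPM, beside 15.3 CPM in TPA+H89 2 of the same batch.

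**Figure D4:**
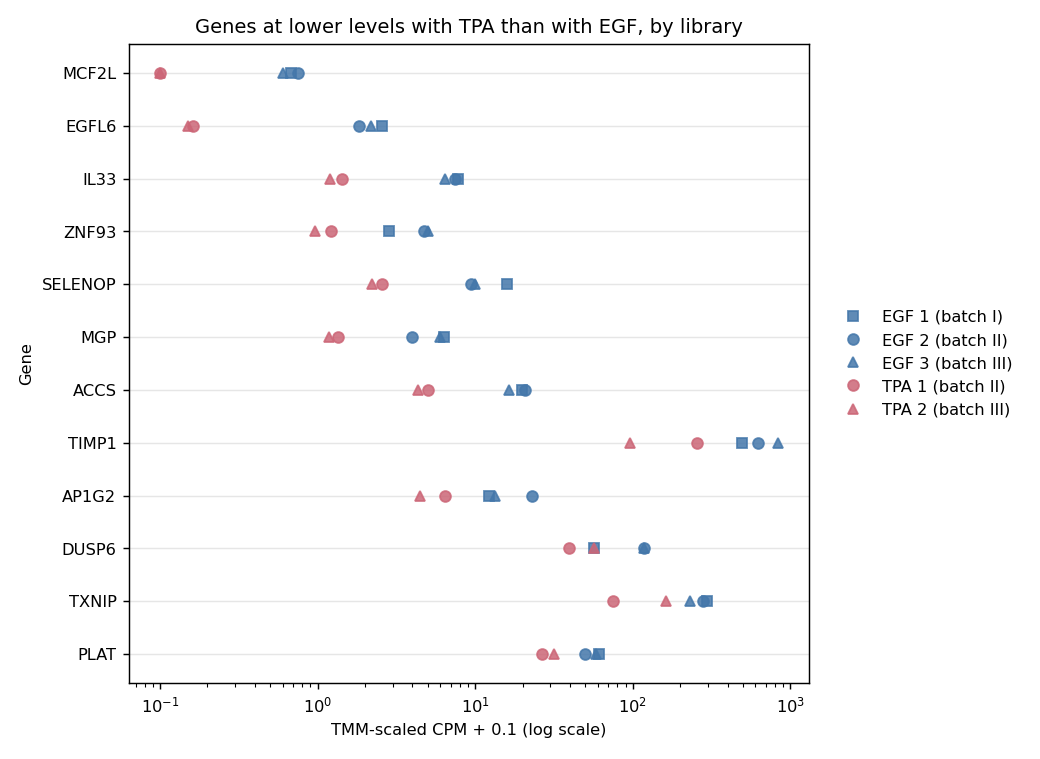
Levels of 12 genes that were lower with TPA than with EGF 2 and EGF 3, in TMM-scaled CPM plus 0.1 on a log axis, with the colours and shapes of the plot of higher genes. The 12 were picked by hand and not by rank. The 15 small RNA genes called lower, SNHG3, ATP5E and TSACC are not drawn. MCF2L, EGFL6, ZNF93, SELENOP, ACCS and AP1G2 were called with the batch term and the other 6 were not, and MCF2L is drawn at its added 0.1 because it had no count with TPA.

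Small RNA genes, 15 of the 24 lower calls, were a small part of the table, as 546 of the 18575 tested genes were of this kind. Most were box C/D small nucleolar RNAs, guides of ribosomal RNA methylation, and they were measured here in libraries of long RNA. SNORD52 stood at 1250 CPM in EGF 1, 1.31 in EGF 2 and 0.851 in EGF 3, and at 0.155 and 0.0165 CPM in TPA 1 and TPA 2. The level in EGF 1 was shared by control 1 of the same batch, which had 597 CPM, so the batch moved with this level. Within batches II and III its log2 differences were -2.77 and -3.91. SNORD57 had 6110, 7 and 20 counts with EGF and 0 and 0 with TPA. SNORD50A, SNORD19B, SNORD110, SNORD123, SNORD138, SNORA25 and SCARNA16 showed the same order of libraries, with EGF 1 the highest and both TPA libraries below EGF 2 and EGF 3. RNU6-2_dup1, a copy of the U6 spliceosomal RNA named after its values were seen, had 232 counts in EGF 3, 0 in EGF 1, EGF 2 and TPA 1, and 3 in TPA 2, so its call rested on batch III. Near-identical copies of such genes can share reads, which makes this count uncertain. When small RNA genes were left out, an alternative added after the data were seen, 42 genes were higher and 13 lower.

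Precursor genes of 2 microRNAs were also called lower. A mature sequence of each from RefSeq is shown with the seed, bases 2 to 8, in capitals. The other strand of MIR145, hsa-miR-145-3p, is not shown. The 2 seeds shown differ. The counts are of the precursor genes and not of these mature strands.
hsa-miR-145-5p: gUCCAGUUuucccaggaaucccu
hsa-miR-637: aCUGGGGGcuuucgggcucugcgu

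MIR145, whose product is abundant in smooth muscle and other mesenchymal cells, stood at 6.62, 2.19 and 1.78 CPM with EGF and at 0.0929 and 0.0165 CPM with TPA (-5.61 ± 0.91, adjusted p = 0.0150 by edgeR). MIR637 stood at 1.27, 2.99 and 1.16 CPM with EGF and at 0.0620 and 0.0165 CPM with TPA (-5.97 ± 1.04, adjusted p = 0.0217 by edgeR). Both rest on few reads, and neither overlapped between the groups.

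The change of each gene from untreated cells was set beside the comparison, keeping in mind that both changes share the control libraries. The genes were also called on TPA minus EGF in this same fit. That choice favours TPA above control in the 38 called higher and below it in the 24 called lower. Log2 changes from control had a median of 3.23 with TPA and 0.42 with EGF over the 38 genes called higher. TPA was above control for all 38 and EGF above control for 26. For FOSB the change from control was 5.85 ± 0.91 with TPA and 1.11 ± 0.77 with EGF. ARC had 6.57 ± 0.80 with TPA and 1.02 ± 0.69 with EGF. DUSP2 had 7.05 ± 0.55 with TPA beside 2.95 ± 0.47 with EGF, and NR4A1 had 6.04 ± 0.56 beside 3.60 ± 0.47, so in these genes EGF stood above control as well. CLDN4 was at 3.56 ± 0.47 with TPA and -0.41 ± 0.41 with EGF, and DDIT4 at 1.44 ± 0.45 and -1.29 ± 0.40. NR4A2 had 1.90 ± 0.56 and -1.20 ± 0.50. ERRFI1 stood at 2.01 ± 0.26 with TPA and 1.79 ± 0.23 with EGF. DUSP6 had 0.06 ± 0.32 with TPA and 1.27 ± 0.28 with EGF. Over the 24 genes called lower the medians were -3.37 with TPA and 0.72 with EGF. EGFL6 stood at -4.98 ± 0.81 with TPA and 0.10 ± 0.50 with EGF, and MGP at -2.18 ± 0.44 and -0.03 ± 0.35.

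**Figure D5:**
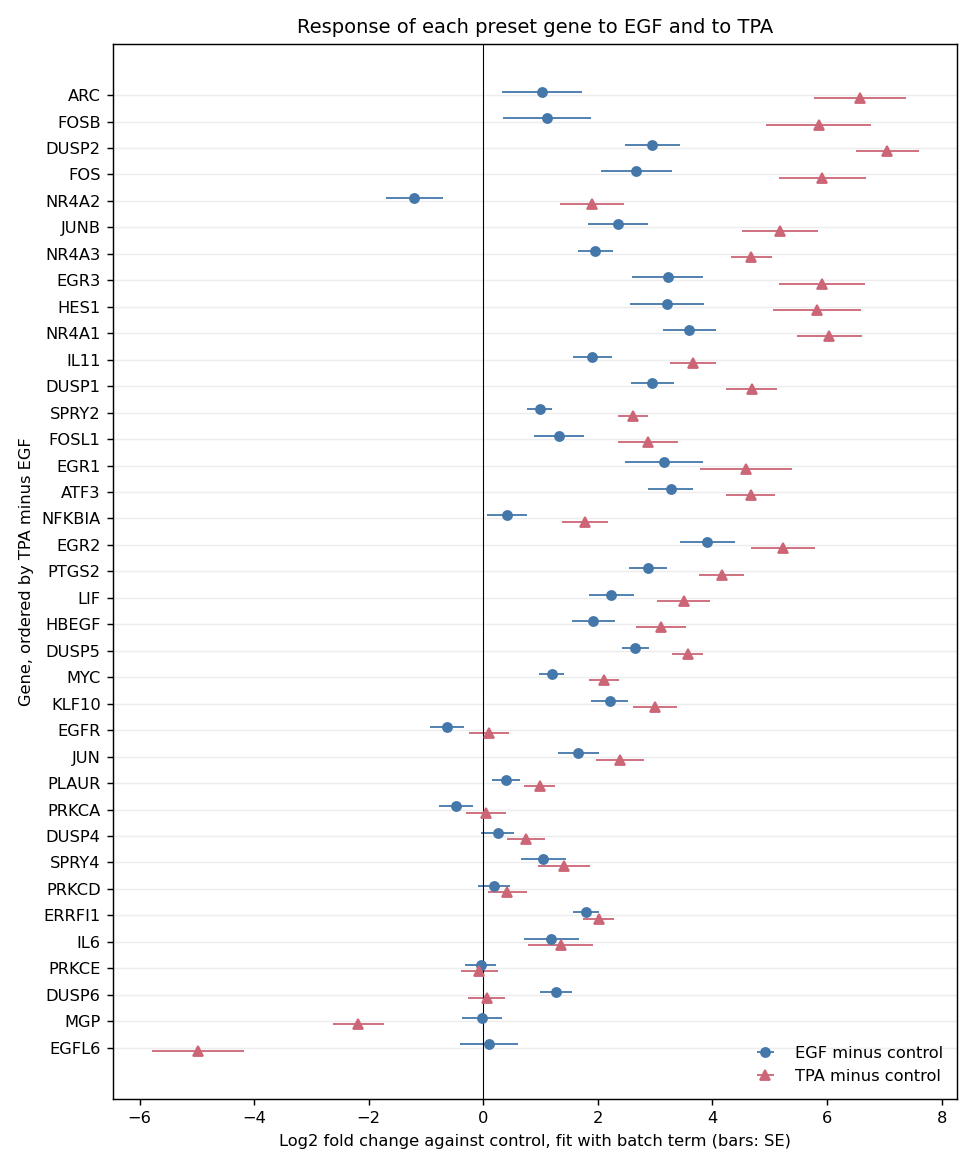
Log2 fold change from untreated cells for each of 37 preset genes with EGF (blue circles) and TPA (red triangles), from the fit with the batch term, with bars of 1 SE, ordered by the difference between the mitogens. The 2 sets share the control libraries. ARC is at 6.57 with TPA and 1.02 with EGF, ERRFI1 is near 2.01 and 1.79, and EGFL6 and MGP lie below 0 with TPA and near 0 with EGF.

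Of these 37 preset genes, 8 were called higher with TPA than with EGF, 1 lower and 28 not. Over all tested genes 0.205% were called higher and 0.129% lower. The preset genes were chosen with earlier results of these data known. A positive difference was seen in 33 of the 37, and in 9133 of the 18575 tested genes. In 26 both TPA libraries lay above all EGF libraries, where 9.71% of the tested genes showed this. The same contrast in cells pretreated with H89 compared 2 other libraries per group, which had also entered the fit behind the calls. TPA+H89 1 had the lowest total count of all libraries, 7527026. There edgeR with the batch term called 0 genes higher and 0 lower, 0% of those tested, with 889 below an unadjusted p of 0.05. The 38 higher genes had a median difference of 0.82 under H89 beside 2.59 without it, and 36 had the same sign, where 50.9% of all genes were positive. The exceptions were ADRA2B and BBC3. Of the 24 lower genes, 21 had the same sign under H89, where 49.1% of all genes were negative, with a median of -0.65 beside -4.32. Both sets were called on the difference without H89. That choice alone favours medians nearer to no difference under H89, so the drop is not a measure of an H89 effect. The difference between the 2 contrasts was tested for every gene, and edgeR called 0, with 1238 genes below an unadjusted p of 0.05 in the fit with the batch term and 554 in the other.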

How the data were processed

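Fibroblast RNA went through ribosomal depletion before strand-specific library preparation, per the labels' protocols. The authors deposited 1 table of raw read counts, with 28374 genes in rows. The submitters' processing notes name HOMER, hg19 and GRCh37, and the aligner is not given in the sources used here. Treatment labels set the groups. The edgeR 4.0.16 package (R 4.3.3) tested 18575 genes, those kept by filterByExpr at a smallest count of 10, after TMM scaling. Its quasi-likelihood model held 15 libraries and all 6 groups, first alone and then with a batch term, and Benjamini-Hochberg adjustment at 0.05 ran over every tested gene. Batch II was defined by more than 5% ribosomal counts. A prior count of 2 entered the log2 CPM values behind within-batch differences. The fits were also run on counts simulated from the fitted batch model. That run took the batches as given, so it cannot vouch for the calls in the real data. The compared groups, preset genes and gene lists were chosen with earlier results of these data known.

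Genes were named by a rule: at most 12 per direction by log2 difference among called genes with a mean of at least 1 CPM, with overlap allowed for EGF 1 alone in the batch fit; 37 preset genes; at most 4 genes of each list in order of p; and the 5 of lowest p where a fit called none. Outside it, ADRA2B, JUND, HMOX1, BBC3, METRNL, SNORA31, CCL2, CREM, DCN, RNU6-2_dup1, SNHG3, AP1G2, ACCS, SELENOP, ZNF93, ATP5E and TSACC were named after their values were seen.

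Alternatives were DESeq2 1.42.0, RLE size factors, limma 3.58.1 voom with quality weights, 2 other filters, fewer groups, both control copies, a term for sets of sample names, a log2 threshold of 1 and left-out libraries. Chosen after seeing the data were RLE, voom and the threshold with the batch term, leaving out EGF 1, control 1 and TPA 2 together, leaving out small RNA genes, the GC correction and the contrast under H89. Promoters were matched by symbol, and no coordinates of the files' build were used.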

Additional observations from a re-analysis of the deposited data

How the results depend on the processing

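Without the batch term, DESeq2 called 170 genes higher and 130 lower, voom 1 higher, the batch term 38 and 24, and the term for sets of sample names 7 and 3. Leaving out 1 library at a time gave 0 to 883 higher and 0 to 282 lower. With the batch term, DESeq2 called 477 and 372, voom 4 and 0, no filter on low counts 1071 and 566, and a filter of 10 counts in 50% of libraries 12 and 12. Only the TPA and EGF libraries gave 113 lower, both control copies 47 lower and the fit without small RNA genes 13 lower. Leaving out EGF 1 and control 1 together gave 0 and 0, leaving out TPA 2 as well 1 and 0, and a log2 threshold of 1 gave 5 and 5. Leaving out 1 library at a time gave 0 to 2324 higher and 0 to 1571 lower. The cause was not tested. No paired analysis was possible because the sample labels carry a serial number and no replicate number. The terms for the batch and for sets of sample names blocked by technical set only.

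The sign of the log2 difference without the batch term changed for some named genes. ACAN was at -0.0185 with DESeq2 and -0.0178 with RLE, and TMEM132D at -0.0612, -0.0522 and, unfiltered, -0.0132. Without EGF 1, control 1 and TPA 2, DUSP4 was at -0.290, JUN at -0.464 and PRKCE at 0.114. SNORA31, at -5.48 otherwise, was at 2.24 with voom, 2.58 with the batch term, 1.95 with the term for sets of names, 2.40 without EGF 1 and control 1 and 1.18 without TPA 2 as well. Leaving out single libraries moved ACAN from -0.83 to 2.93, BBC3 from -0.0215 to 1.87, IL6 from -0.45 to 1.33, JUN from -0.71 to 1.23, METRNL from -0.33 to 2.47, PRKCA from -0.13 to 1.24, RNU6-2_dup1 from -8.65 to 2.88, SNORA31 from -6.72 to 2.43, TCF21 from -1.41 to 3.09 and TMEM132D from -2.04 to 4.44.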
